A study of Mus musculus with 16 samples.

Results

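The genes described are *Cd9*, *Cd63*, *Cd81*, *Cd82*, *Cd37*, *Cd53* and *Cd151*, the tetraspanins usually named for microglia and other leukocytes, taken by symbol from the table of counts. They are 7 of the 55385 genes in that table, and all 7 were among the 14513 genes that passed the filter on low counts and were tested. RNA was sequenced from cells that CD11b magnetic beads retained from the brains of mice at 20 weeks of age, in 16 libraries, 4 for each of 4 genotypes. Per the study's methods, female 5xFAD mice were among those obtained and crossed to make these genotypes. CD11b is an integrin chain on microglia and other myeloid cells, and the sort was made after the meninges and choroid plexus had been taken off. WT mice carried no 5xFAD transgenes, *Card9*-/- mice carried a germline deletion of *Card9*, 5xFAD mice carried the transgenes, and *Card9*-/-5xFAD mice carried both. 5xFAD mice express transgenes with mutant human APP from the neuronal Thy1 promoter and deposit amyloid-β, so the transgenes are driven in neurons and not in the sorted cells. The *Card9* deletion is present in every cell of the animal, and CARD9 is an adaptor that carries signals from receptors such as Dectin-1, the product of *Clec7a*, in myeloid cells.

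Tetraspanins are small proteins that cross the membrane repeatedly and hold partner proteins, among them integrins, Ig-superfamily proteins and proteases, in membrane microdomains. CD9, CD81, CD82 and CD151 are found mostly at the plasma membrane, CD63 mostly in late endosomes, lysosomes and the vesicles released from them, and CD37 and CD53 are restricted to leukocytes. *Cd9* and *Cd63* are widely used as marker genes of microglia gathered around amyloid plaques.

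The promoters of 4 genes are shown, those of *Cd9* and *Cd63* because their transcripts were higher with the transgenes, and those of *Cd37* and *Cd53* because both genes are leukocyte-specific and their levels moved together between libraries. *Cd81* moved more closely with each of *Cd37* and *Cd53* (Pearson r = 0.959 with both) than they did with each other (r = 0.888). Each window runs from 250 bases before to 50 bases after a RefSeq gene start on GRCm38.p6, written 5′ to 3′ on the gene's strand, with matches to the searched motifs in capitals.
Cd9, chr6:125494711-125495010, minus strand: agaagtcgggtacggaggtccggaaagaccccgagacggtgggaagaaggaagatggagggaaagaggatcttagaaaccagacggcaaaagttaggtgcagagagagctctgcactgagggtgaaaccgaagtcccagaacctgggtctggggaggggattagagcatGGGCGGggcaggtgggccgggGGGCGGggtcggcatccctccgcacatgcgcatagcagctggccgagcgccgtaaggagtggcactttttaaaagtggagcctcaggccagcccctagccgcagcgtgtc
Cd63, chr10:128909095-128909394, plus strand: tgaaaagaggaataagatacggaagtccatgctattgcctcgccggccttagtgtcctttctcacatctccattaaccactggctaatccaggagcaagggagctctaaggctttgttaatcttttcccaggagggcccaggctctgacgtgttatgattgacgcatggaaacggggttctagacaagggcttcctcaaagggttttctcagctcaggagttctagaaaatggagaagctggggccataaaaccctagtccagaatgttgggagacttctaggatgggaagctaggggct
Cd37, chr7:45238790-45239089, minus strand: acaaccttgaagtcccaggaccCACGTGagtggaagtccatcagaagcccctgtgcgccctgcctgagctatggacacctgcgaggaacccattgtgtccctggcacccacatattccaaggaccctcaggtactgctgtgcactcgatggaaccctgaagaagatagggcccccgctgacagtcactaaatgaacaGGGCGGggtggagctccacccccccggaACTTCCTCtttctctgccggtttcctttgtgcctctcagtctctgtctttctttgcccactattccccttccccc
Cd53, chr3:106790100-106790399, minus strand: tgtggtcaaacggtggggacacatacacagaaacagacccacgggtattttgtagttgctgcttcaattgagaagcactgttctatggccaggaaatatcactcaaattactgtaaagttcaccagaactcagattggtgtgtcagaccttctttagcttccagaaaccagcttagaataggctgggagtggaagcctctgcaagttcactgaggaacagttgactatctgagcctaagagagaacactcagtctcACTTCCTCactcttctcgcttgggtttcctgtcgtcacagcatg
Both strands were searched for 5 motifs, the E-box CACGTG, the GC box with the letters GGGCGG, the AP-1 element written as TGANTCA, the TATA box with TATAAA, and GAGGAAGT, a sequence bound by PU.1, a factor of the myeloid lineage. The *Cd9* window held GGGCGG 2 times, and the *Cd63* window held none of the 5. The *Cd63* window lies inside the annotated span of the gene, chr10:128900989-128912822, and the start of that span was not searched. GAGGAAGT was found on the opposite strand, as ACTTCCTC, in both the *Cd37* and the *Cd53* window, and in 3.202% of all 32851 promoter windows of this length. GGGCGG was found in 35.7% of those windows, CACGTG in 7.15%, TGANTCA in 7.81% and TATAAA in 13.6%. The *Cd37* window also held 1 CACGTG and 1 GGGCGG. GAGGAAGT was also found in a window of *Cd82* and was absent from that of *Cd81*, neither of which is shown. These matches describe the letters of each window only, and a link of any motif to the levels was not tested.

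In all, 2970148 to 19333325 reads per library were counted on genes (median 7944265), and levels are given as CPM, the count of a gene over the TMM-scaled size of its library. The fitted differences of all tested genes were not centred on 0, with a median log2 fold change of -0.15 in 5xFAD against WT and also in *Card9*-/-5xFAD against *Card9*-/-. In every library the 10 microglial markers were abundant, with a summed level of 16731 CPM or more, while the 8 neuronal markers summed to 18.3 CPM or less. One library of each genotype stood apart along the first principal component of all tested genes, namely WT replicate 1, *Card9*-/- replicate 4, 5xFAD replicate 1 and *Card9*-/-5xFAD replicate 4. Their scores were 77.9 to 119, against -72.1 to 30.0 in the other 12. They were picked as the highest score of each genotype, with the sign of the component set so that *Cd82* correlated negatively with it. Ribosomal protein genes took 4.09 to 5.93% of the counts in these 4 libraries and 0.914 to 3.24% in the other 12. Among those 12 the share split by transgene, with 0.914 to 1.84% without the transgenes and 2.22 to 3.24% with them. The part of this split in the differences with the transgenes was not tested. Libraries also differed in length slope, the dependence of their levels on transcript length. By replicate number the slopes were -0.15, 0.037, -0.014, 0.20 (WT) and -0.30, -0.18, -0.21, 0.078 (5xFAD). On the *Card9*-/- background they were 0.22, 0.39, 0.16, -0.14 without the transgenes and 0.17, 0.15, -0.22, -0.19 with them. Slopes thus ran lower with the transgenes, with overlap. Beyond refits with this slope as a covariate, its part was not tested. Each of the 4 libraries that stood apart also had the lowest microglial sum of its genotype, 16731, 19417, 16891 and 19004 CPM in the order named. *Card9*-/- replicate 4 and *Card9*-/-5xFAD replicate 4 had the fewest counts of all libraries, 3229322 and 2970148. Results were therefore also computed without these 4 libraries. *Card9* itself did not separate the labelled genotypes, with 13.6, 51.3, 43.2 and 39.3 CPM in WT and 31.6, 34.8, 33.2 and 16.7 CPM in the libraries labelled *Card9*-/- (adjusted p = 0.970). Counts summed over a gene cannot show the loss of single exons, so they check the deletion neither way, and directions for *Card9* below are those of the labels.

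The transgenes were accompanied by higher *Cd9* and *Cd63* transcripts, and the other 5 tetraspanins did not pass the test. In 5xFAD against WT, 2 of the 7 genes passed an adjusted p of 0.1, both higher, where 2.09% of all tested genes passed and 1.57% passed as higher. In *Card9*-/-5xFAD against *Card9*-/-, the same *Cd9* and *Cd63* passed, both higher, where 1.97% of all tested genes passed and 1.49% as higher. The median log2 fold change of the 7 genes was 0.37 in both comparisons, against -0.15 over all tested genes in each. In bulk RNA a higher share of cells that carry a transcript and more of it per cell cannot be told apart.

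*Cd9*, on the minus strand of chromosome 6 (chr6:125460266-125494791 in GRCm38), encodes a surface tetraspanin that binds integrins. Its level was 669, 1144, 1499.7 and 1025 CPM in WT replicates 1 to 4, and 3481, 3811, 4475 and 2715 CPM in 5xFAD replicates 1 to 4. The lowest 5xFAD library therefore lay above the highest WT library, a separation upward seen for 4.35% of all tested genes. The fitted difference was 3.34-fold (log2 1.74 ± 0.43 SE, 95% interval 1.78 to 6.25-fold, adjusted p = 0.0547 by edgeR's quasi-likelihood test). On the *Card9*-/- background, *Cd9* measured 1039, 605, 983 and 359.5 CPM without the transgenes and 2197, 2298, 3619 and 869.8 CPM with them. These ranges overlapped, since the *Card9*-/-5xFAD library that stood apart, replicate 4, was below *Card9*-/- replicates 1 and 3. The fitted difference there was 3.01-fold (log2 1.59 ± 0.43 SE, 95% interval 1.61 to 5.62-fold, adjusted p = 0.0941).

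The size of the *Cd9* difference held in every refit, but its call did not. Leaving out 1 of 16 libraries at a time gave a log2 fold change of 1.56 to 2.02 in 5xFAD against WT. The call was lost, with an adjusted p above 0.1, without WT replicate 1 (0.133), WT replicate 2 (0.159), WT replicate 4 (0.208), 5xFAD replicate 1 (0.112), 5xFAD replicate 2 (0.151) or 5xFAD replicate 3 (0.186). On the *Card9*-/- background the log2 fold change was 1.26 to 1.86, and the call held in only 3 of the 16 refits, those without WT replicate 1, 5xFAD replicate 4 or *Card9*-/-5xFAD replicate 4. In the other 13 the adjusted p was 0.105 to 0.312, highest without *Card9*-/-5xFAD replicate 3. Without the 4 libraries that stood apart, *Cd9* passed in both comparisons, with log2 fold changes of 1.62 (adjusted p = 0.00834) and 1.65 (adjusted p = 0.00629).

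*Cd63*, on the plus strand of chromosome 10 (chr10:128900989-128912822), encodes the tetraspanin of late endosomes and exosomes. WT replicates 1 to 4 had 1057, 587, 694 and 528 CPM, and 5xFAD replicates 1 to 4 had 3274, 2645, 2917 and 1888 CPM. Every 5xFAD library was above every WT library, and within each genotype the library that stood apart was the highest, unlike for *Cd9*. The difference was 3.74-fold (log2 1.90 ± 0.36 SE, 95% interval 2.21 to 6.33-fold, adjusted p = 0.0105). *Card9*-/- replicates 1 to 4 had 485, 272, 500.1 and 734 CPM, and *Card9*-/-5xFAD replicates 1 to 4 had 1482, 1555, 2559 and 2766 CPM. Here too the ranges did not overlap, as for 3.53% of all tested genes in the upward direction, and the difference was 4.20-fold (log2 2.07 ± 0.36 SE, 95% interval 2.47 to 7.13-fold, adjusted p = 0.00569). No single library decided the *Cd63* calls, with log2 fold changes of 1.79 to 2.21 and of 1.87 to 2.31 over the 16 refits and adjusted p of at most 0.0514 and 0.0290. Over the other alternative settings the log2 fold changes reached lower, with 1.52 to 2.08 and 1.67 to 2.23. Fitted on the *Card9*-/- and *Card9*-/-5xFAD libraries alone, the second difference was nearly the same (log2 2.08) with an adjusted p of 0.110. Median transcripts of *Cd63* and *Cd9*, at 1.063 and 1.228 kb, are the shortest of the 7. With the length slope as a covariate, 5xFAD against WT gave 1.52 for *Cd63* (adjusted p = 0.00034) and 1.82 for *Cd9* (adjusted p = 0.0329). On the *Card9*-/- background 2 of the 7 genes passed in that refit.

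Reads of *Cd63* may be shared with *Cd63*-ps, a processed pseudogene whose annotated sequence matches a *Cd63* transcript at 835 of 849 aligned bases. The pseudogene was counted at 10.7 to 14.98% of the *Cd63* count (median 11.7%), and the 2 rows followed each other over the 16 libraries (Pearson r = 0.997 on the log2 CPM scale). Adding its counts to those of *Cd63* changed the log2 fold change to 1.93 in 5xFAD against WT and to 2.08 on the *Card9*-/- background, with adjusted p of 0.00938 and 0.00550. *Cd9*-ps, a copy of *Cd9*, was counted 0 to 3 times per library. Whether the counting used strand is not given in the sources used here, and 2 genes on the opposite strand of *Cd9* had 4 to 54 and 15 to 147 counts, against 1099 or more counts of *Cd9*. Genes on the opposite strand also overlap *Cd81* (62 to 267 counts), *Cd37* (1 to 47), *Cd82* (0 to 4) and *Cd151*, where the overlapping gene had 3 to 37 counts against 80 to 992 of *Cd151* itself.

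Markers of other cells moved in the same comparisons, where 2.09% (5xFAD against WT) and 1.97% (*Card9*-/- background) of all tested genes passed. Of 6 markers of border-associated macrophages, 3 were lower in 5xFAD than in WT (*Mrc1*, *Lyve1* and *F13a1*) and 1 on the *Card9*-/- background (*Mrc1*), and their summed level was 879.5 to 1432 CPM in WT and 515 to 646 CPM in 5xFAD, and 853 to 1695 CPM in *Card9*-/- and 370 to 1579 CPM in *Card9*-/-5xFAD, with none of the 6 at 0 in any genotype. Among 8 astrocyte markers only *Gfap* was higher, in both comparisons (log2 4.32 and 2.81), and among 7 endothelial markers only *Pecam1* was lower, in 5xFAD against WT. The astrocyte markers summed to 238 to 358 CPM in WT and 199 to 257 CPM in 5xFAD, and to 191 to 479.9 CPM in *Card9*-/- and 173 to 381 CPM in *Card9*-/-5xFAD. The 7 neutrophil markers, of which 0 passed, summed to 790.1 to 3469 CPM in WT, 613 to 1960.4 CPM in 5xFAD, 756 to 6168 CPM in *Card9*-/- and 415 to 5749.6 CPM in *Card9*-/-5xFAD. The highest neutrophil sum of each genotype was in the library that stood apart, which was also the highest of its genotype for *Cd63* and the lowest for *Cd81*, *Cd82*, *Cd37* and *Cd53*. None of the 10 microglial markers passed in either comparison, with median log2 fold changes of -0.05 and 0.10. The part of these cells in the values of the 7 genes was not tested.

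**Figure D1:**
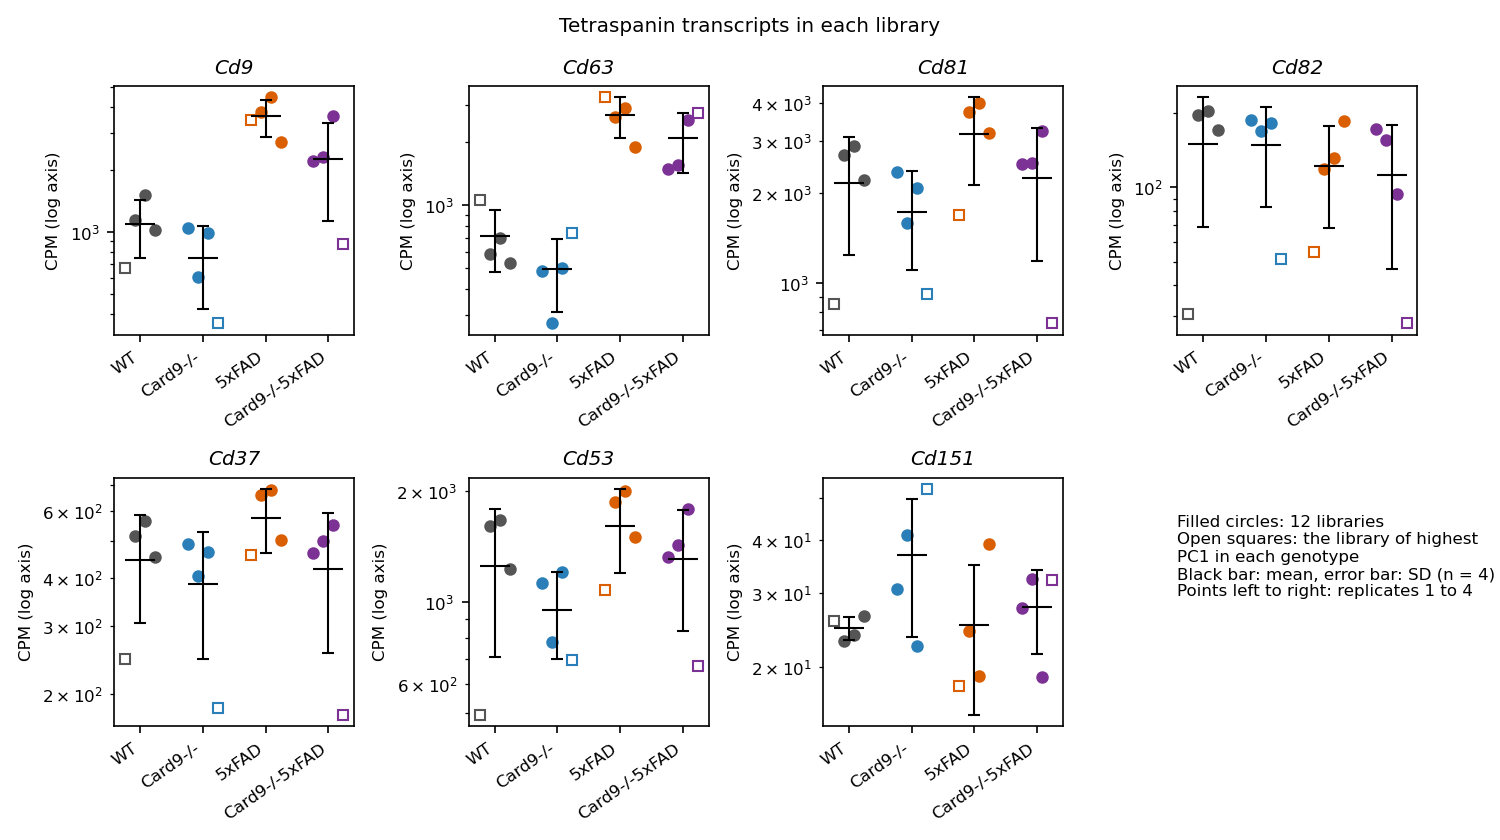
Level of each tetraspanin transcript (CPM, log axis) in the 4 libraries of each genotype, with the mean and SD (n = 4) in black and the library that stood apart as an open square. *Cd63* of both 5xFAD genotypes lies above both genotypes without the transgenes, and the open squares are the lowest points of their genotype for *Cd81*, *Cd82*, *Cd37* and *Cd53*.

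*Cd81*, on chromosome 7 (chr7:143052739-143067934, plus strand), encodes a broadly expressed surface tetraspanin. It was present at 852, 2691, 2886 and 2208 CPM in WT, 2355, 1591, 2078 and 921 CPM in *Card9*-/-, 1691, 3742, 3990.3 and 3189.9 CPM in 5xFAD, and 2503, 2519, 3223 and 734 CPM in *Card9*-/-5xFAD. All 4 genotypes overlapped, and the lowest library of each was the one that stood apart. The difference with the transgenes was 1.46-fold against WT (95% interval 0.736 to 2.90-fold, adjusted p = 0.719) and 1.29-fold on the *Card9*-/- background (0.652 to 2.56-fold, adjusted p = 0.806). Without the 4 libraries that stood apart, these were log2 0.52 and 0.48, with unadjusted p of 0.0317 and 0.0465 and adjusted p of 0.191 and 0.178.

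The leukocyte tetraspanins CD37 and CD53 regulate adhesion and immune receptor signaling, and CD37 is known to bind Dectin-1. *Cd37* (chr7:45233632-45239115, minus strand) measured 246, 516, 563 and 455 CPM in WT, 490.4, 404.5, 469 and 184 CPM in *Card9*-/-, 461, 658, 677 and 502 CPM in 5xFAD, and 465, 501, 550.2 and 177 CPM in *Card9*-/-5xFAD. *Cd53* (chr3:106759921-106790149, minus strand) measured 495, 1612, 1669 and 1227 CPM in WT, 1129, 780.4, 1208 and 696 CPM in *Card9*-/-, 1077, 1871, 1999.8 and 1502 CPM in 5xFAD, and 1329, 1427, 1793 and 672 CPM in *Card9*-/-5xFAD. For both genes the genotypes overlapped, and again the library that stood apart was the lowest of each. With the transgenes, *Cd37* differed by 1.29-fold (0.732 to 2.28-fold, adjusted p = 0.783) and 1.09-fold (0.620 to 1.93-fold, adjusted p = 0.927). *Cd53* differed by 1.29-fold (0.728 to 2.28-fold, adjusted p = 0.785) and 1.37-fold (0.773 to 2.42-fold, adjusted p = 0.705). With upper bounds of 1.93 to 2.42-fold, the intervals do not show that the levels of either gene were alike.

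*Cd82* encodes a surface tetraspanin first described as a suppressor of metastasis, and lies on chromosome 2 (chr2:93419111-93463140, minus strand), the chromosome that also holds *Card9*. Its coefficient of variation between libraries was the highest of the 7 genes in each of the 4 genotypes (43.8 to 58.5%). Its level was 30.6, 197, 204 and 170.3 CPM in WT, 188, 169.7, 182 and 51.4 CPM in *Card9*-/-, 54.4, 118, 131 and 186 CPM in 5xFAD, and 173, 156, 93.5 and 28.03 CPM in *Card9*-/-5xFAD. The 4 libraries that stood apart had 28.03 to 54.4 CPM and the other 12 had 93.5 to 204 CPM, a gap that crossed all genotypes. The sign of the component that marks these 4 was set by *Cd82*, so the direction of this gap was fixed by that choice. With the transgenes, *Cd82* had log2 fold changes of -0.30 (adjusted p = 0.894) and -0.39 (adjusted p = 0.842), and a covariate for the dependence of each library on transcript length turned these to 0.37 and 0.26 (adjusted p = 0.663 and 0.762).

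*Cd151* (chr7:141467392-141471473, plus strand) encodes a partner of laminin-binding integrins and was the scarcest of the 7. It had 25.7, 23.1, 23.8 and 26.4 CPM in WT, 30.6, 41.0, 22.5 and 52.7 CPM in *Card9*-/-, 18.0, 24.4, 19.1 and 39.1 CPM in 5xFAD, and 27.6, 32.3, 18.9 and 32.0 CPM in *Card9*-/-5xFAD, from 80 to 992 counts per library. WT libraries were close together and the other 3 genotypes spread around them. Its log2 fold changes with the transgenes were 0.02 (adjusted p = 0.986) and -0.40 (adjusted p = 0.654).

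**Figure D2:**
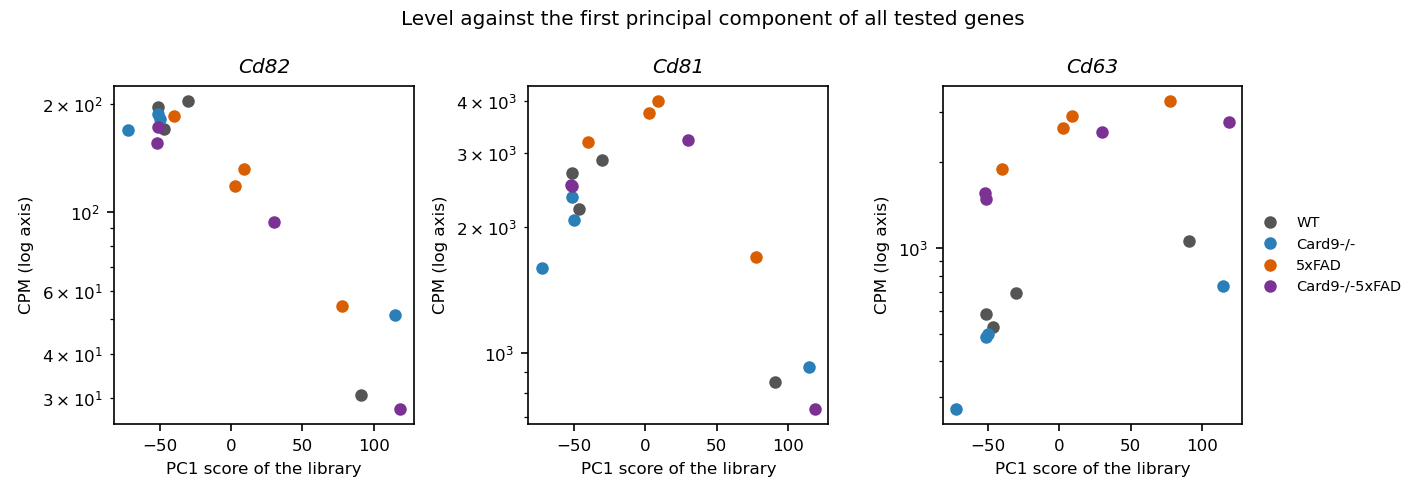
Level (CPM, log axis) of *Cd82*, *Cd81* and *Cd63* against the score of each library on the first principal component of all tested genes, coloured by genotype. The 4 libraries of highest score hold the 4 lowest *Cd82* values, 28.03 to 54.4 CPM, while *Cd63* separates by transgene at all scores. The sign of the score was set so that *Cd82* falls along it.

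Whether loss of *Card9* changed these transcripts was tested with and without the transgenes. In *Card9*-/-5xFAD against 5xFAD, 0 of the 7 genes passed, as did 0% of all tested genes, and 0 of the 7 had an unadjusted p under 0.05, against 2.52% of all tested genes. No member had groups that did not overlap, against 1.89% of all tested genes in either direction. Of the 7 genes, 6 had lower fitted levels in the libraries labelled *Card9*-/-5xFAD and 1 higher, with a median log2 fold change of -0.36 against 0.14 over all tested genes. *Cd9* had the lowest unadjusted p (0.118), at 2246 ± 1123 CPM (SD, n = 4) against 3621 ± 732 CPM, a log2 fold change of -0.69 ± 0.42 SE with a 95% interval of -1.57 to 0.20. For *Cd63* it was -0.36 (95% interval -1.09 to 0.38), at 2091 ± 667 CPM against 2681 ± 588 CPM. *Cd81* had -0.49, *Cd37* -0.44, *Cd53* -0.30, *Cd82* -0.12 and *Cd151* 0.14 in the same comparison, each with an adjusted p of 0.993 or more. Without the 4 libraries that stood apart, *Cd9* had -0.45 and *Cd63* -0.42 (adjusted p = 0.884 for both).

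In *Card9*-/- against WT, again 0 of the 7 genes passed, as did 0% of all tested genes. None had an unadjusted p under 0.05, against 4.11% of all tested genes, and none had groups that did not overlap, against 2.66%. The lowest unadjusted p was that of *Cd151* (0.0841), at 36.7 ± 13.1 CPM against 24.8 ± 1.56 CPM in WT, a log2 fold change of 0.56 with a 95% interval of -0.08 to 1.21. The other 6 had lower fitted levels in the libraries labelled *Card9*-/-, from -0.54 for *Cd9* and -0.53 for *Cd63* to -0.03 for *Cd82*, all with adjusted p of 0.970 or more. The median log2 fold change of the 7 genes was -0.31, against 0.11 over all tested genes. DESeq2 on all libraries called 3 genes in *Card9*-/-5xFAD against 5xFAD and 6 in *Card9*-/- against WT, with 0 of the 7 tetraspanins in either.

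The difference between the transgene effects of the 2 *Card9* genotypes was tested as an interaction. It passed for 0 of the 7 genes and 0% of all tested genes, and at an unadjusted p under 0.05 for 0 of the 7 and 0.537% of all. The interaction was -0.15 for *Cd9* (log2, 95% interval -1.40 to 1.09) and 0.17 for *Cd63* (-0.87 to 1.20), and the lowest unadjusted p was 0.340 for *Cd151*. Intervals of this width do not show that the responses of the 2 *Card9* genotypes were alike.

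**Figure D3:**
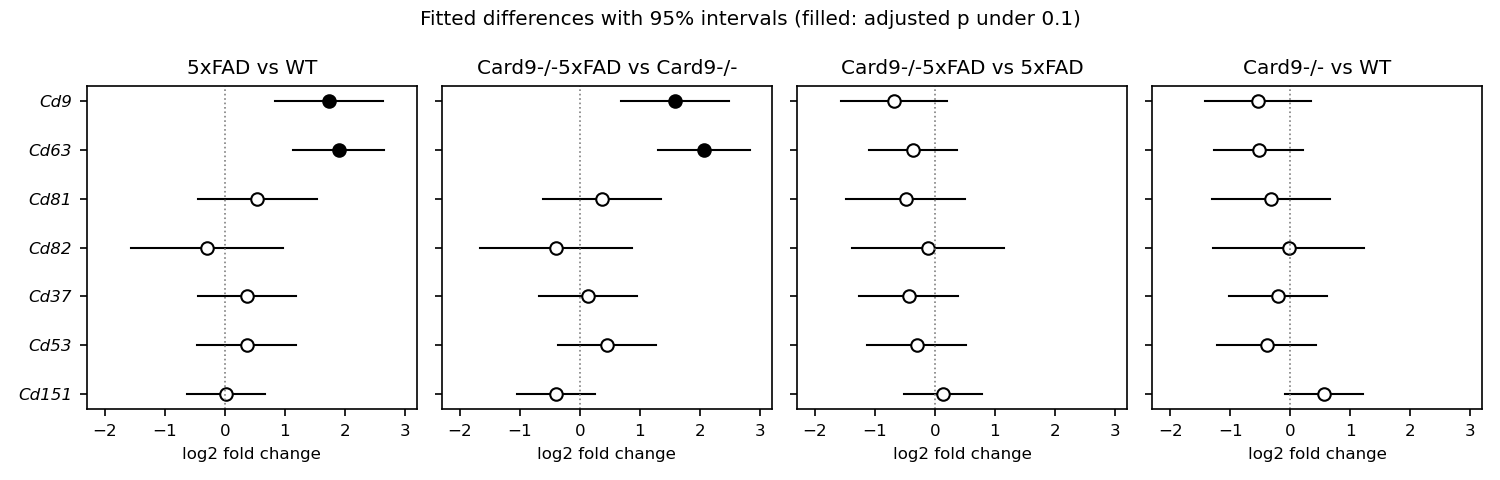
Log2 fold change with its 95% interval for each of the 7 genes in the 4 pairwise comparisons, filled where the adjusted p was under 0.1. The filled points are *Cd9* and *Cd63* with the transgenes, at 1.59 to 2.07, and every interval in the 2 comparisons of *Card9* genotypes covers 0.

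Levels of different genes were compared per kilobase of median transcript length. In WT the order of the mean levels was *Cd81* at 1408 ± 598 CPM per kb (SD, n = 4), *Cd9* at 883 ± 279, *Cd53* at 718 ± 310.4, *Cd63* at 674 ± 223, *Cd37* at 351 ± 110.2, *Cd82* at 90.1 ± 48.6 and *Cd151* at 14.5 ± 0.911 CPM per kb. The first 4 overlapped their neighbours over the WT libraries, while *Cd63* and *Cd37*, *Cd37* and *Cd82*, and *Cd82* and *Cd151* did not. In 5xFAD the order was *Cd9* at 2948 ± 596, *Cd63* at 2522 ± 553, *Cd81* at 2057 ± 672, *Cd53* at 926 ± 238, *Cd37* at 453 ± 85.9, *Cd82* at 73.3 ± 32.3 and *Cd151* at 14.7 ± 5.68 CPM per kb. There *Cd9*, *Cd63* and *Cd81* overlapped, as did *Cd81* and *Cd53*. In *Card9*-/- the order was that of WT, from *Cd81* at 1133 ± 409.9 to *Cd151* at 21.5 ± 7.66 CPM per kb, and *Cd63* and *Cd37* overlapped as well, as did *Cd82* and *Cd151*. In *Card9*-/-5xFAD, *Cd63* at 1967 ± 627 came before *Cd9* at 1829 ± 915 and *Cd81* at 1464 ± 693 CPM per kb, these 3 overlapping their neighbours, and *Cd53*, *Cd37*, *Cd82* and *Cd151* followed as in 5xFAD, where here *Cd81* and *Cd53*, *Cd53* and *Cd37*, and *Cd82* and *Cd151* overlapped. *Cd82* and *Cd151* held the last 2 places in all 16 libraries.

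The share of each gene in the per-kb counts of the 7 was not tested. *Cd9* made up 21.2 ± 1.35% (SD, n = 4) of them in WT and 32.7 ± 2.43% in 5xFAD, with no overlap between these libraries. The *Cd9* share was 13.4 to 21.1% in *Card9*-/- and 16.3 to 32.8% in *Card9*-/-5xFAD, and these ranges overlapped. *Cd81* made up 21.3 to 37.3% in WT and 13.7 to 27.9% in 5xFAD, which overlapped, and 27.4 to 38.7% in *Card9*-/- and 11.003 to 26.9% in *Card9*-/-5xFAD, which did not. The shares add up to a fixed whole, so a lower *Cd81* share is not a lower *Cd81* level. That level was fitted 1.46-fold and 1.29-fold higher with the transgenes (adjusted p = 0.719 and 0.806 by edgeR's quasi-likelihood test). The *Cd9* level per *Cd81*, a ratio within each library, was 0.531 to 0.981 in WT and 0.475 to 0.591 in *Card9*-/-, and 1.06 to 2.57 in 5xFAD and 1.10 to 1.48 in *Card9*-/-5xFAD. All 8 libraries with the transgenes had a higher ratio than all 8 without, which the levels of *Cd9* alone did not show. The ratio was not tested, and no share over other gene pairs is given beside it. Its highest value in WT, 5xFAD and *Card9*-/-5xFAD belonged to the library that stood apart. In *Card9*-/-5xFAD replicate 4 it came from 869.8 CPM of *Cd9* and 734 CPM of *Cd81*. The ratios of *Cd63* to *Cd9* and of *Cd37* to *Cd53* overlapped between libraries with and without the transgenes. The *Cd63* level per *Cd81* was 0.315 to 1.79 in WT, 0.247 to 1.15 in *Card9*-/-, 0.854 to 2.79 in 5xFAD and 0.854 to 5.44 in *Card9*-/-5xFAD, and its highest value in each genotype belonged to the library that stood apart.

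**Figure D4:**
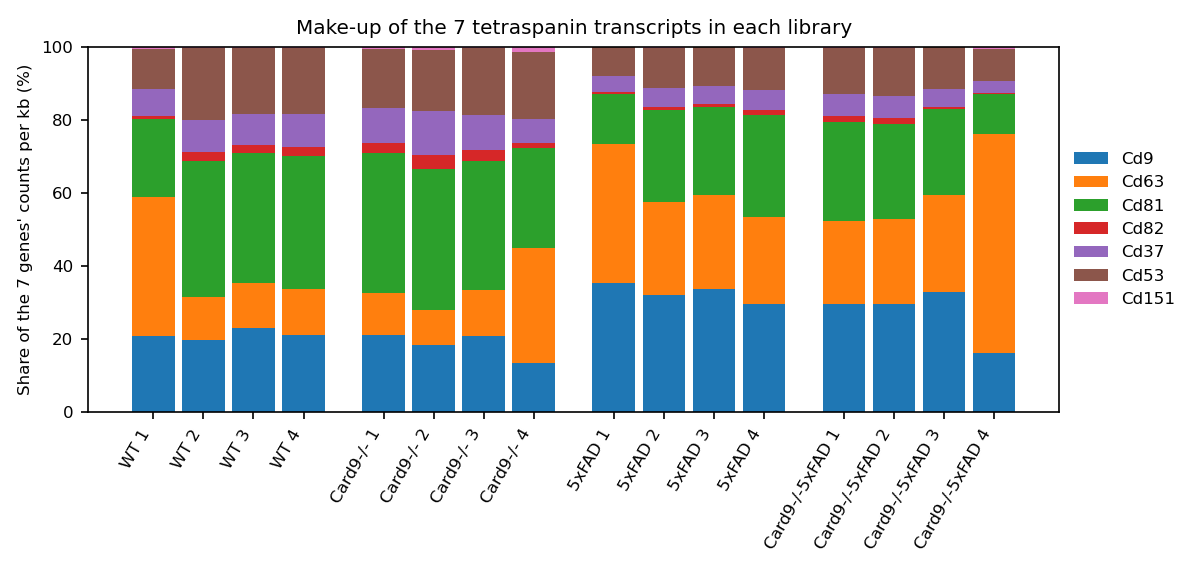
Share of each gene in the summed per-kb counts of the 7 tetraspanins (%, stacked from 0 to 100) in each of the 16 libraries. *Cd9* made up 21.2% in WT and 32.7% in 5xFAD on average, while *Cd82* and *Cd151* stayed the thinnest bands.

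Over the 16 libraries the 7 transcripts did not move as 1 group. *Cd81* had a Pearson r of 0.959 with both *Cd37* and *Cd53* on the log2 CPM scale, and *Cd37* one of 0.888 with *Cd53*, whereas *Cd63* had 0.0901 with *Cd37*, 0.156 with *Cd81* and -0.43 with *Cd82*. *Cd9* lay between, with 0.730 with *Cd63* and 0.751 with *Cd81*. These values share libraries and depth and include the differences between genotypes and the 4 libraries that stood apart, so they describe likeness of pattern only. Outside the 7 genes, the patterns most like *Cd9* were those of *Cd68* (r = 0.998), which encodes a lysosomal glycoprotein of phagocytes, *Ctsl* (r = 0.994), a lysosomal protease, and *Lyz2* (r = 0.986), lysozyme. For *Cd63* they were *Cd63*-ps, *Fabp5* (r = 0.989), a fatty acid binding protein, and *Ccl6* (r = 0.977), a chemokine. For *Cd81* they included *Syngr2* and *Psmd6*, and *Cd82* was most like *Xbp1* (r = 0.983), a factor of the unfolded protein response, *Asb8* and *Cnot8*. *Cd37* was most like *H2-DMb1* (r = 0.986), part of the machinery that loads peptides on MHC class II, *Ppp1ca* and *Bub3*, and *Cd53* was most like *Arpc5* (r = 0.984), a subunit of the actin-branching Arp2/3 complex, *Vdac3* and *Ypel5*. *Cd151* had looser company, with *Fadd* (r = 0.918), an adaptor of death receptors, *Cyp2u1* and *Zfp574*.

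Of 24 further tetraspanins in the table, 16 passed the filter on low counts and were tested, and the other 8 were not. Of the 16, 0 had an adjusted p under 0.1 in 5xFAD against WT or in *Card9*-/-5xFAD against *Card9*-/- (median log2 fold changes -0.030 and -0.19), where 2.09% and 1.97% of all tested genes passed, so a count of 0 is near the background. The count was 1 in each comparison with DESeq2, 2 in each with 1 surrogate variable or with the length covariate, and 1 and 2 without the 4 libraries that stood apart. The lowest adjusted p in each was that of *Tspan18*, with log2 fold changes of -1.17 (adjusted p = 0.174) and -1.22 (adjusted p = 0.135). *Tspan18* measured 44.2, 76.9, 46.6 and 78.1 CPM in WT and 20.8, 25.4, 17.8 and 45.4 CPM in 5xFAD. *Tspan3* and the urothelial gene *Upk1b* were abundant among the 16, with means of 249 and 258 CPM per kb in WT and 259 and 147 CPM per kb in 5xFAD, each below the mean of *Cd37* in the same genotype. The 8 that did not pass the filter, among them the photoreceptor gene *Prph2* and the urothelial gene *Upk1a*, each averaged under 1 CPM per kb in every genotype.

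**Figure D5:**
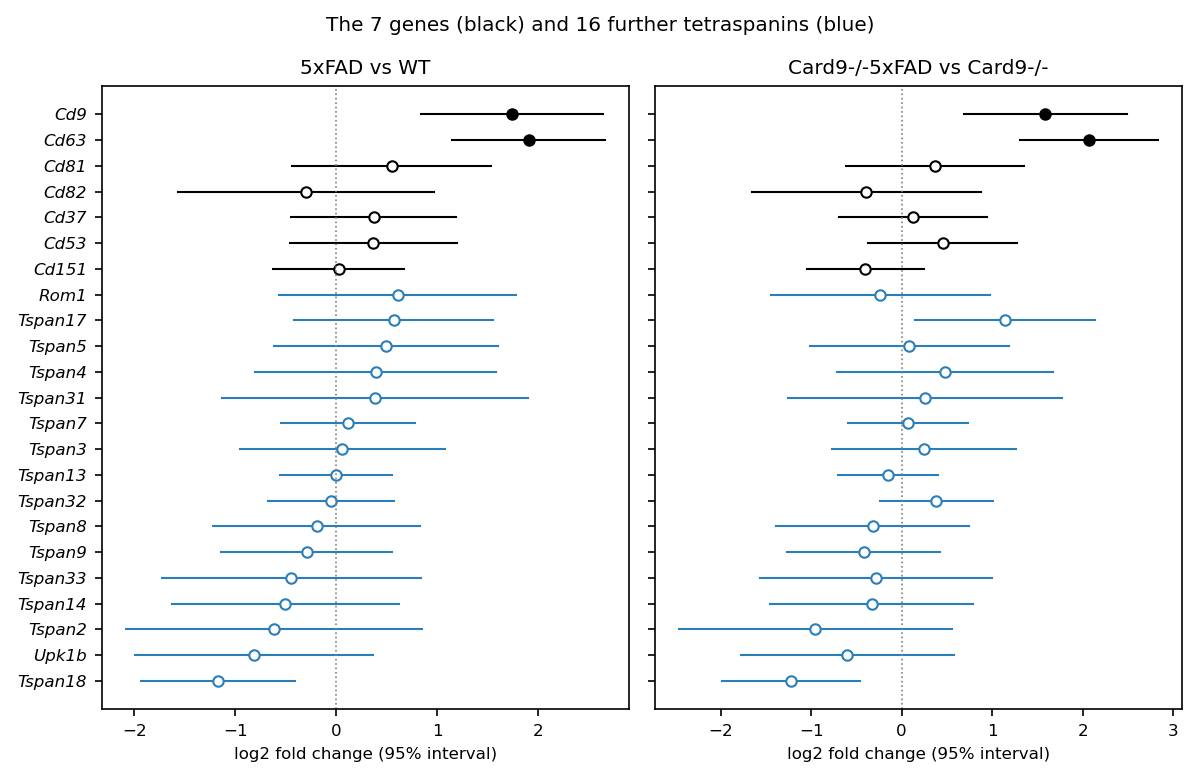
Log2 fold change with its 95% interval in both transgene comparisons for the 7 genes (black) and the 16 further tetraspanins that were tested (blue), filled where the adjusted p was under 0.1. *Cd9* and *Cd63* are the only filled points, and *Tspan18* lies lowest at -1.17 and -1.22.

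Of 13 tested genes for partner proteins of tetraspanins, 1 was higher and 1 lower in 5xFAD than in WT, where 2.09% of all tested genes passed, with a median log2 fold change of -0.31. This count of 2 ranged from 1 to 5 over the alternatives, and the 1 gene that passed on the *Card9*-/- background, where 1.97% of all tested genes did, became up to 6. *Clec7a*, the gene of Dectin-1, had 53.7, 82.5, 92.3 and 58.9 CPM in WT and 592, 883, 852 and 653 CPM in 5xFAD (log2 3.37, adjusted p = 0.000101). On the *Card9*-/- background it went from 60.04, 58.3, 88.8 and 45.8 CPM to 857, 756, 614 and 291 CPM (log2 3.31, adjusted p = 0.000136), while the transcript of its partner *Cd37* did not pass in either comparison. *Itga4*, the α4 integrin chain, was lower in 5xFAD than in WT, with 15.8, 8.47, 13.02 and 26.1 CPM in WT and 4.85, 4.66, 7.55 and 5.72 CPM in 5xFAD (log2 -1.48, adjusted p = 0.0604). On the *Card9*-/- background its log2 fold change was -1.30 (adjusted p = 0.118). Of 17 tested genes for late endosomes and vesicle release, the compartment of CD63, 0 passed in either comparison, near the background of 2.09% and 1.97%, with median log2 fold changes of -0.14 and -0.026 and lowest adjusted p of 0.505 and 0.681. Without the 4 libraries that stood apart, 1 of them passed on the *Card9*-/- background.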

How the data were processed

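Per the labels and the study's methods, HISAT2 aligned the reads to mm10, SAMtools filtered the alignments and HTSeq counted them per gene. The table that the authors deposited holds these raw read counts, whole numbers with no scaling. Versions, filter settings and the strand setting of the counting are not given in the sources used here. All 16 columns were used, and 0 columns lacked a sample. Libraries held 2970148 to 19333325 counts. Whether the 4 libraries of a genotype came from 4 animals is not stated in the labels, so p-values measure the spread between these libraries.

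Counts were tested in R 4.3.3 with edgeR 4.0.16 (TMM, filterByExpr with a minimum count of 10, quasi-likelihood fit of all 16 libraries in 4 groups). Benjamini-Hochberg adjustment covered the 14513 tested genes of each comparison, and an adjusted p (FDR) under 0.1 was called. The SE was taken from the log2 fold change and its F statistic. Correlations used log2 CPM with a prior count of 2. Levels between genes were divided by the median length of GENCODE M21 basic transcripts (GRCm38). Promoters came from RefSeq (GRCm38.p6), where each of the 7 symbols matched. The steps were tested on simulated counts with known changes.

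The genes named are the 7 members, Card9, members of the 3 lists on tetraspanins, their partners and late endosomes that passed with the transgenes, and the 3 genes of most similar pattern for each member, of which 1 is not reported here. Tspan18, Tspan3, Upk1b, Prph2, Upk1a, the marker genes that passed and Cd9-ps were named after their values were seen. The members, lists and tests were chosen with earlier results of these data known. The alternatives were DESeq2 1.42.0 (all libraries or only the groups compared), DESeq2 size factors in edgeR, edgeR on only the groups compared, other filters on low counts, a threshold of 0.05, a replicate block, 1 surrogate variable (sva 3.50.0) and each library left out. The refits without the 4 libraries that stood apart, with a transcript length covariate, and with Cd63 and Cd63-ps summed were chosen after the data were seen.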

Additional observations from a re-analysis of the deposited data

Results flagged for a closer look

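The level of *Cd82* in *Card9*-/- replicate 4, 51.4 CPM, lay far below the other 3 libraries of its genotype, which had 169.7 to 188 CPM. The gap took up more of the range of the 4 values than Dixon's test allows at 95%. It was the only such value among 28 combinations of gene and genotype, and chance alone flags about 1 in 20. This library is 1 of the 4 that stood apart on the first principal component.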

How the results depend on the processing

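The direction of *Cd9*, *Cd63*, *Cd81* and *Cd53* with the transgenes was kept under every alternative run. The number of the 7 genes called in 5xFAD against WT was 2, and fell to 1 (*Cd63*) with no filter on low counts and at a threshold of 0.05. On the *Card9*-/- background it was 2, and fell to 1 (*Cd63*) with no filter, when each library had to hold 10 counts or more, and at the threshold of 0.05, and to 0 with edgeR on only the groups compared. Leaving out 1 library at a time gave 1 to 2 calls in both. None of the 7 was called for *Card9* genotype or interaction under any alternative. The counts called among further tetraspanins, partner proteins and late endosome genes, given above, ranged over the alternatives from 0 to 2, 1 to 5 and 0 to 0 in 5xFAD against WT, and from 0 to 2, 1 to 6 and 0 to 1 on the *Card9*-/- background.

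Counts of all genes called moved more. In 5xFAD against WT the 304 genes became 171 when each library had to hold 10 counts or more, 591 with DESeq2 on all libraries, 684 with DESeq2 on only the groups compared, 2068 with 1 surrogate variable, 1144 without the 4 libraries that stood apart, 887 with the length covariate, and 164 to 386 leaving out 1 library. On the *Card9*-/- background the 286 became 185 with no filter, 148, 835, 455, 2567, 2394 and 751 under those 6 settings in the same order, 96 with edgeR on only the groups compared, 162 at the threshold of 0.05, and 120 to 720 leaving out 1 library. For *Card9*-/-5xFAD against 5xFAD the 0 became 1 with no filter and with the surrogate variable, 3 and 9 with DESeq2 on all or only the compared libraries, and 0 to 1 leaving out 1. For *Card9*-/- against WT the 0 became 2, 9, 6 and 8 under those settings, 3 with the length covariate, and 0 to 1 leaving out 1. For the interaction it became 1 with DESeq2 and 0 to 1 leaving out 1. The cause of these moves was not tested.

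Signs turned for differences that never passed. The length covariate gave *Cd82* 0.37 and 0.26 with the transgenes. The surrogate variable gave *Cd82* 0.17 in *Card9*-/- against WT and *Cd53* an interaction of -0.017. Without the 4 libraries that stood apart, *Cd151* was -0.069 in *Card9*-/-5xFAD against 5xFAD, and the interactions of *Cd9* and *Cd82* were 0.031 and 0.032. Leaving out 1 library, *Cd151* ranged from -0.090 to 0.16 (5xFAD against WT) and from -0.0015 to 0.27 (*Card9*-/-5xFAD against 5xFAD), *Cd37* from -0.10 to 0.39 (transgenes on *Card9*-/-) and from -0.40 to 0.031 (*Card9*-/- against WT), and *Cd82* from -0.40 to 0.20 and from -0.37 to 0.26 in the *Card9* comparisons with and without the transgenes. Interactions then ranged from -0.48 to 0.12 (*Cd9*), -0.078 to 0.41 (*Cd63*), -0.40 to 0.12 (*Cd81*), -0.38 to 0.25 (*Cd82*), -0.47 to 0.019 (*Cd37*) and -0.10 to 0.35 (*Cd53*).

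Replicate numbers are shared between genotypes, and libraries of the same number deviated together in some pairs and apart in others (r of -0.71 to 0.73 over 24 pairs, over 0.1 in 15), while 5 of 16 libraries correlated best with their own number. With the number as a replicate block, *Cd9* had log2 fold changes of 1.71 and 1.54 and *Cd63* 1.93 and 2.10 with the transgenes, and *Cd151* turned to -0.054 in 5xFAD against WT. The block changed no call of the 7 genes.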
